A study of Homo sapiens with 10 samples.

Results

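The 5 human butyrophilin genes BTN2A1, BTN2A2, BTN3A1, BTN3A2 and BTN3A3 were followed among 22432 genes named on the arrays. They were found by symbol in the platform annotation, and each had 1 probe set. The group was chosen on the signals of these arrays, with the ZHX2 hairpins against scrambled and p65 shRNA against control shRNA in view, so in those comparisons the values of the 5 genes are a description and carry no test. The difference between the ZHX2 hairpins was not named in the choice and was tested. Its arrays were among those used for the choice, so its p-values and intervals may not be free of that choice.

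All arrays carried total RNA of 786-O cells, a clear-cell renal carcinoma line that lacks a working VHL gene, after lentiviral infection and selection with puromycin at 2 ug/ml. The first deposited table held 786-O cells with ZHX2 shRNA 44, with ZHX2 shRNA 45 and with a scrambled hairpin, and the other held 786-O cells with p65 shRNA and with control shRNA, on 2 arrays per group and 10 arrays in all. ZHX2 is a zinc-finger and homeobox transcription factor that the VHL protein marks for destruction, and p65, encoded by RELA, is a transactivating subunit of NF-kB. Every group came from 1 cell line, and p65 knockdown rested on 1 labelled shRNA. Nothing in the labels relates the control shRNA to the scrambled hairpin or tells whether replicates were separate cultures, so a p-value covers the spread among these arrays alone, which may be technical.

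Butyrophilins are transmembrane relatives of the B7 costimulatory ligands. The BTN3A proteins and BTN2A1 act in phosphoantigen sensing: the inner B30.2 domain of BTN3A1 binds isoprenoid pyrophosphates made by the mevalonate pathway or by microbes, BTN3A1 then pairs with BTN2A1, and BTN2A1 binds the gamma chain of the Vgamma9Vdelta2 T-cell receptor. BTN3A2 lacks the B30.2 domain, BTN3A3 carries one that does not bind phosphoantigen as BTN3A1 does, and BTN2A2 restrains T-cell activation. Their genes lie side by side on chromosome 6, beside the replication-dependent histone genes. In human T cells the MHC class I regulator NLRC5 is known to act on BTN3A promoters through an SXY module, whose X box is bound by the RFX complex and whose Y box, the letters CCAAT, is bound by NF-Y.

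Promoter windows of 3 of the 5 genes were at hand, and they are given because these include BTN3A3 and the other genes with the widest differences under p65 shRNA. They were searched for letters of the X and Y boxes, and a match is a description of the letters, not a module or a bound site. The RefSeq windows of assembly GRCh38.p14 run from 250 bases before to 50 bases after the gene start on the plus strand, at chr6:26440254-26440553 for BTN3A3, chr6:26364948-26365247 for BTN3A2 and chr6:26457705-26458004 for BTN2A1. Capitals mark matches to the X box letters CAACNGNTG and to CCAAT, on either strand.
BTN3A3: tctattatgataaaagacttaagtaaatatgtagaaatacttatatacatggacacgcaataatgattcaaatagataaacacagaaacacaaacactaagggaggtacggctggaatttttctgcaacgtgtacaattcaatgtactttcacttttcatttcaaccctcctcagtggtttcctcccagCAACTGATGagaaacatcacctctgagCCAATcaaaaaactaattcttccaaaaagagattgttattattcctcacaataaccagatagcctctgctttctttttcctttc
BTN3A2: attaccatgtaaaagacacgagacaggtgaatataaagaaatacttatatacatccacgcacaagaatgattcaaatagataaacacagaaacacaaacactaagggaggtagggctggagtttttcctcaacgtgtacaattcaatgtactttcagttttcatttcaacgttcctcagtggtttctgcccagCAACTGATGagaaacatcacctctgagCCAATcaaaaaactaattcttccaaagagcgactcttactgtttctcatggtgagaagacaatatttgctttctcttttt
BTN2A1: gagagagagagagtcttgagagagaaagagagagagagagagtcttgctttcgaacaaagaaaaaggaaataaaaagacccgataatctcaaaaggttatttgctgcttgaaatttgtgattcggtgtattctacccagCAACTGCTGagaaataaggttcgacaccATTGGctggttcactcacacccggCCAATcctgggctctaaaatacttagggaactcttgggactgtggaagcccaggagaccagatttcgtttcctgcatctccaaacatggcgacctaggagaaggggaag
The X box match began at position -61 from the gene start in BTN3A3, at -57 in BTN3A2 and at -111 in BTN2A1, and a CCAAT match followed at -34, at -30 and at -59. BTN2A1 held another CCAAT match, on the minus strand, at -83. The X box letters were chosen after these sequences were seen. Of 35116 windows of the same length, 815 held them (2.32%), 12155 held CCAAT (34.6%) and 292 held both (0.832%). The interferon-stimulated response element, searched as GAAANNGAA and present in 8.11% of windows, matched BTN3A3 alone among the 3, on the minus strand at position 36 after the start, and no matched stretches overlapped. Neither the STAT letters TTCNNNGAA, in 7.66% of windows, nor the NF-kB consensus, in 11.3%, matched in the 3 windows. A second annotated window of BTN3A2, starting at chr6:26367928, held no match to any of the 5 motifs. The first BTN3A2 window and that of BTN3A3 had 252 of 293 aligned bases in common (86.0%). The share was 62.2% between the first BTN3A2 window and BTN2A1, and 54.3% between BTN3A3 and BTN2A1. It was 53.0% between the first and second BTN3A2 windows, and bases set against gaps were left out of all these shares. The BTN3A paralogs are close copies of each other, probe sequences were not used here, and how far a probe set of one gene reads another was not tested.

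BTN3A3 had the lowest change of the 5 genes under p65 shRNA. Its signal was 1.06 and 1.19 on the p65 shRNA arrays, against 3.67 and 3.61 on the control arrays (log2 RMA signal, as for all levels here). Both p65 shRNA arrays lay below both control arrays, and the groups were far apart relative to their replicates. The means were 1.12 ± 0.0938 with p65 shRNA and 3.64 ± 0.0411 with control shRNA (SD, n = 2 each), a log2 change of -2.52 (SE 0.169) or 0.175 of the control signal. The probe set of RELA itself, the target of the hairpin, read 5.04 and 5.28 with p65 shRNA and 7.64 and 7.67 with control shRNA, a log2 change of -2.50. Of all 22432 genes, 7 had a change at or below that of BTN3A3, itself included (0.0312%), and 95% of genes lay between -0.94 and 0.79. Because RNA came from whole cultures, fewer cells with the transcript and less transcript per cell cannot be told apart. Array medians over all probe sets were 1.87 to 1.89, and with no background measure in use it is not known whether the p65 shRNA values of BTN3A3 were above background.

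**Figure D1:**
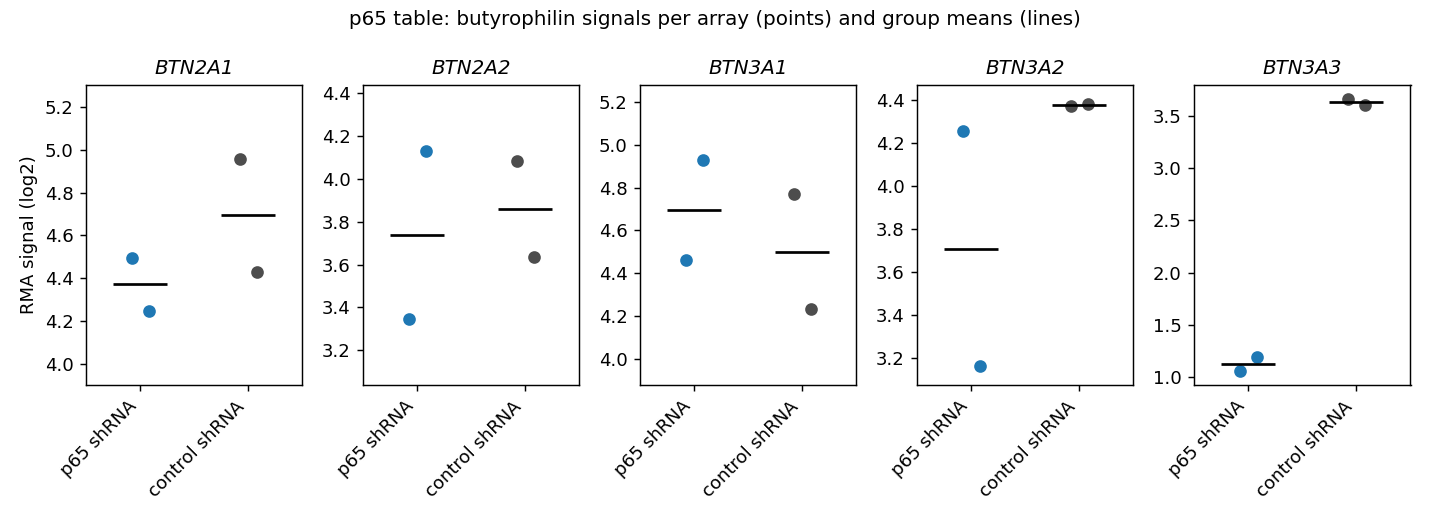
Log2 RMA signal of the 5 butyrophilin genes on the p65 shRNA arrays (left in each panel) and the control shRNA arrays (right), with 1 point per array and a line at each group mean. Panels have their own signal ranges. BTN3A3 sits at 1.06 and 1.19 with p65 shRNA and at 3.67 and 3.61 with control shRNA, while in BTN2A2, BTN3A1 and BTN2A1 the points of the groups overlap.

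BTN3A2, the BTN3A gene without a B30.2 domain, was less settled. It read 4.26 and 3.16 with p65 shRNA, against 4.38 and 4.39 with control shRNA. The groups did not overlap, but the p65 shRNA arrays differed from each other by 1.10. That was more than the distance of their mean from the control mean, a log2 change of -0.67 (SE 0.372). The change was -1.22 without p65 shRNA replicate 1 and -0.12 without p65 shRNA replicate 2. BTN3A1, the phosphoantigen sensor, read 4.46 and 4.93 with p65 shRNA and 4.77 and 4.23 with control shRNA, with a log2 change of 0.20 (SE 0.271). The sign of that change turned with single arrays: it was 0.46 without control replicate 1 and 0.43 without p65 shRNA replicate 1, but -0.07 without control replicate 2 and -0.04 without p65 shRNA replicate 2. Among the BTN3A genes, both p65 shRNA arrays stood far below control for BTN3A3, 1 of 2 did for BTN3A2 and none did for BTN3A1.

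BTN2A1, the ligand of the gamma chain, read 4.49 and 4.25 with p65 shRNA, against 4.96 and 4.43 with control shRNA. Its change was -0.32 (SE 0.241), and the arrays overlapped, since 1 control array lay below 1 p65 shRNA array. It was -0.06 without control replicate 1 and -0.59 without control replicate 2. BTN2A2, the T-cell inhibitor, read 3.35 and 4.13 with p65 shRNA and 4.08 and 3.64 with control shRNA, so its log2 change of -0.12 (SE 0.319) was smaller than the gap between arrays of either group. It turned to 0.27 without p65 shRNA replicate 1 and 0.10 without control replicate 1, and was -0.51 without p65 shRNA replicate 2 and -0.34 without control replicate 2. The median change of the 5 genes was -0.32, against 0.00686 over all genes.

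The limma test called 0 of the 5 genes and 0% of all genes in the p65 comparison at an adjusted p under 0.05, although 3216 genes (14.3%) had an unadjusted p under 0.05. RELA, the target of the hairpin, was not called there either (limma adjusted p = 0.0733). A lack of calls in this comparison thus does not show a lack of change. With an intensity trend in the moderation, 866 genes were called (3.86%), of which 307 were higher (1.37%) and 559 lower (2.49%), and BTN3A3 was the 1 butyrophilin among them, in 3 of 4 fits without single arrays, the exception being that without p65 shRNA replicate 1, which called 11 genes in all. A signal at least 2-fold lower was seen in 1 of 5 butyrophilins and in 2.14% of genes, and arrays without overlap in 2 of 5 and in 46% of genes. These counts describe genes chosen with this comparison in view.

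**Figure D2:**
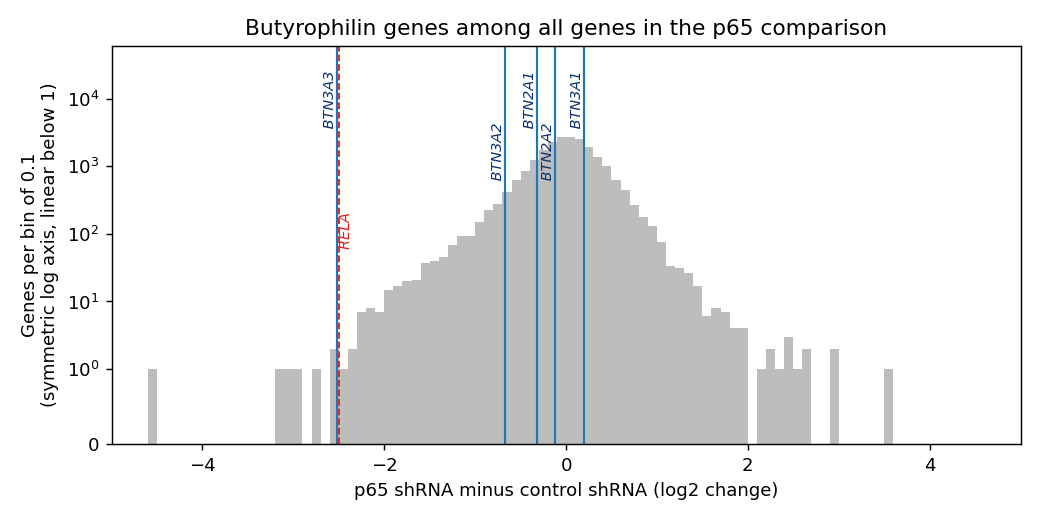
Number of genes in bins of 0.1 of the log2 change between p65 shRNA and control shRNA (grey bars, symmetric log axis that is linear below 1), with solid lines at the 5 butyrophilin genes and a dashed line at RELA. BTN3A3 at -2.52 stands beside RELA at -2.50 in the lower tail, and the other 4 lie between -0.67 and 0.20.

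In the ZHX2 table the widest change of the 5 genes from scrambled was 0.45 on the log2 scale, for BTN2A1 with hairpin 45. The hairpins did act on their target: ZHX2 read 9.35 and 9.38 with hairpin 44, 8.93 and 9.03 with hairpin 45, and 10.58 and 10.43 with scrambled, a mean log2 change of -1.33 (SE 0.0746). RELA was higher by 0.44 for the mean of both hairpins (limma adjusted p = 0.0112), by 0.37 with hairpin 44 and by 0.50 with hairpin 45. The changes of the 5 butyrophilins under the mean of both hairpins lay between -0.19 and 0.26, with a median of -0.12 against -0.00425 over all genes. None of the 5 was called, where limma called 18.3% of all genes, 11.9% higher and 6.41% lower.

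BTN2A1 was the gene in which the hairpins read most differently. It read 8.01 and 7.57 with hairpin 44, 8.14 and 8.21 with hairpin 45, and 7.70 and 7.75 with scrambled. Both hairpin 45 arrays exceeded every other array, whereas the hairpin 44 arrays lay on either side of the scrambled ones. The log2 change was 0.07 (SE 0.145) with hairpin 44 and 0.45 (SE 0.145) with hairpin 45, the last of these a 1.36-fold higher signal. With hairpin 44 it was -0.15 without hairpin 44 replicate 1 and 0.28 without hairpin 44 replicate 2, whereas with hairpin 45 it stayed between 0.42 and 0.48 over the omissions. By group mean, hairpin 45 came highest at 8.17 ± 0.0474, then hairpin 44 at 7.79 ± 0.306 and scrambled at 7.72 ± 0.0355 (SD, n = 2 each), and the means with hairpin 44 and scrambled did not differ beyond their spread.

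BTN2A2 read 7.46 and 7.39 with hairpin 44, 7.35 and 7.16 with hairpin 45, and 7.68 and 7.37 with scrambled. The lower scrambled array lay just below the hairpin 44 arrays, while both hairpin 45 arrays were below it. Its log2 change was -0.11 (SE 0.127) with hairpin 44 and -0.27 (SE 0.127) with hairpin 45. Without scrambled replicate 1 the changes were 0.05 with hairpin 44 and -0.12 with hairpin 45, and without scrambled replicate 2 they were -0.26 and -0.43. The order of the means, scrambled 7.53, hairpin 44 7.42 and hairpin 45 7.25, had overlapping neighbours at scrambled and hairpin 44.

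BTN3A1 was the one butyrophilin whose 4 hairpin arrays all lay below both scrambled arrays, by a small margin. It read 7.34 and 7.38 with hairpin 44, 7.31 and 7.26 with hairpin 45, and 7.59 and 7.43 with scrambled. The log2 change was -0.15 (SE 0.0848) with hairpin 44, -0.23 (SE 0.0848) with hairpin 45 and -0.19 (SE 0.0735) for their mean, which was -0.11 without scrambled replicate 1 and -0.27 without scrambled replicate 2. Arrays without overlap in the mean comparison were thus found in 1 of 5 butyrophilins, and in 38.3% of all genes.

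BTN3A2 and BTN3A3 had overlapping arrays in all 3 groups. BTN3A2 read 5.87 and 6.32 with hairpin 44, 5.87 and 6.08 with hairpin 45, and 6.20 and 5.80 with scrambled, and its change for the mean of both hairpins was 0.04 (SE 0.170), or -0.16 to 0.23 over the omissions of single arrays. BTN3A3 read 6.63 and 6.81 with hairpin 44, 6.43 and 6.92 with hairpin 45, and 6.88 and 6.75 with scrambled, and its change was -0.12 (SE 0.147), or -0.24 to 0.0051 over the omissions, positive without hairpin 45 replicate 1. The hairpin 45 arrays of BTN3A3 spanned all others. The 2 tables were normalized separately and share no control, so the BTN3A3 values of one are set beside those of the other without a test of the difference.

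**Figure D3:**
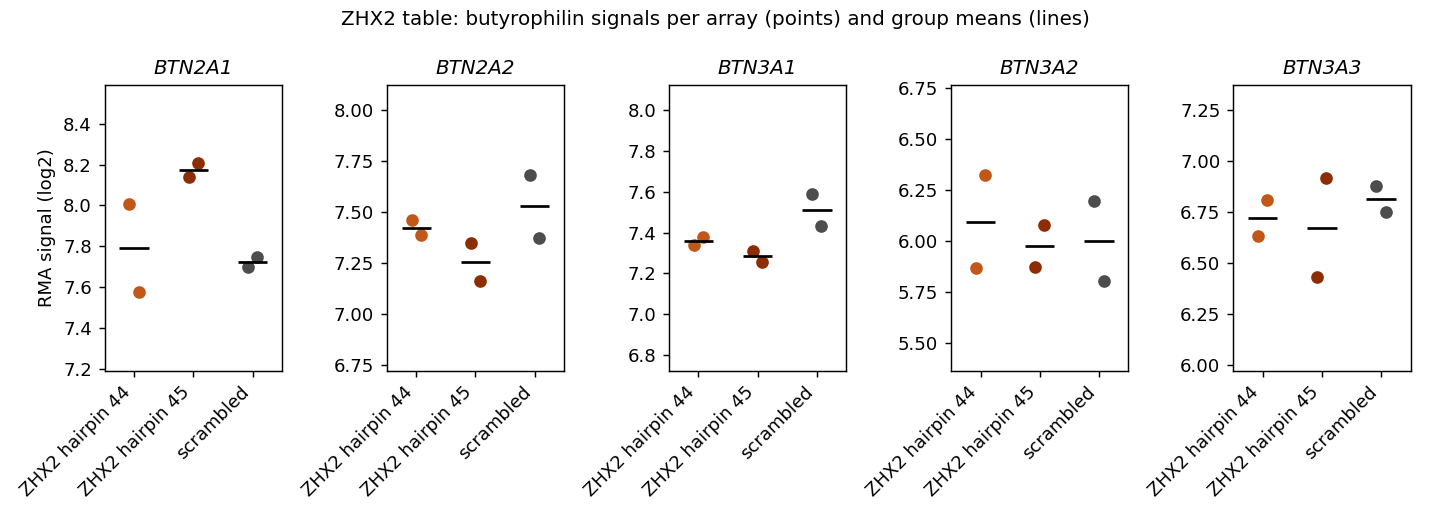
Log2 RMA signal of the 5 butyrophilin genes with ZHX2 hairpin 44, ZHX2 hairpin 45 and scrambled (left to right in each panel), with 1 point per array and a line at each group mean. Panels have their own signal ranges. The points overlap between groups for BTN3A2 and BTN3A3, and for BTN2A1 both hairpin 45 points, 8.14 and 8.21, are above all others.

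Hairpin by hairpin, 0 of the 5 genes were called against scrambled, beside 7.65% of all genes with hairpin 44 and 20.1% with hairpin 45. BTN2A1 was called higher with hairpin 45 under other settings: with the intensity trend (27.9% of all genes called), without dim probe sets (34.1%) and in the fit of only the groups compared (14.3%). Leaving out a hairpin 44 array gives this last fit again, since a single array adds no spread. The choice of genes used this comparison, so these calls are a description and not a test. No other butyrophilin was called against scrambled under the alternatives run. Arrays without overlap were found in 1 of 5 genes with hairpin 44, BTN3A1, and in 52.2% of all genes. With hairpin 45 they were found in 3 of 5, BTN2A1, BTN2A2 and BTN3A1, and in 58.9% of all genes. Both comparisons use the same scrambled arrays.

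The hairpins were then compared with each other, on arrays that the choice of genes had also used. This tests whether the cells with hairpin 45 differed from those with hairpin 44. None of the 5 genes passed, with limma calling 0.397% of all genes and 15.1% having an unadjusted p under 0.05. BTN2A1 was higher by 0.38 with hairpin 45 than with hairpin 44 (SE 0.145, 95% interval 0.0246 to 0.739, limma adjusted p = 0.307). These intervals are on the log2 scale and are not adjusted for the number of genes. The adjusted p of limma lay between 0.0971 and 0.648 over the alternative settings, and the difference between 0.17 and 0.60 when single arrays were left out. BTN2A2 differed by -0.17 (95% interval -0.48 to 0.14, limma adjusted p = 0.592) and BTN3A1 by -0.07 (-0.28 to 0.13, limma adjusted p = 0.742). BTN3A2 differed by -0.12 (-0.60 to 0.37, limma adjusted p = 0.833) and BTN3A3 by -0.05 (-0.46 to 0.37, limma adjusted p = 0.928). Arrays without overlap were seen in 3 of 5 genes, BTN2A1, BTN2A2 and BTN3A1, beside 50.4% of all genes.

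**Figure D4:**
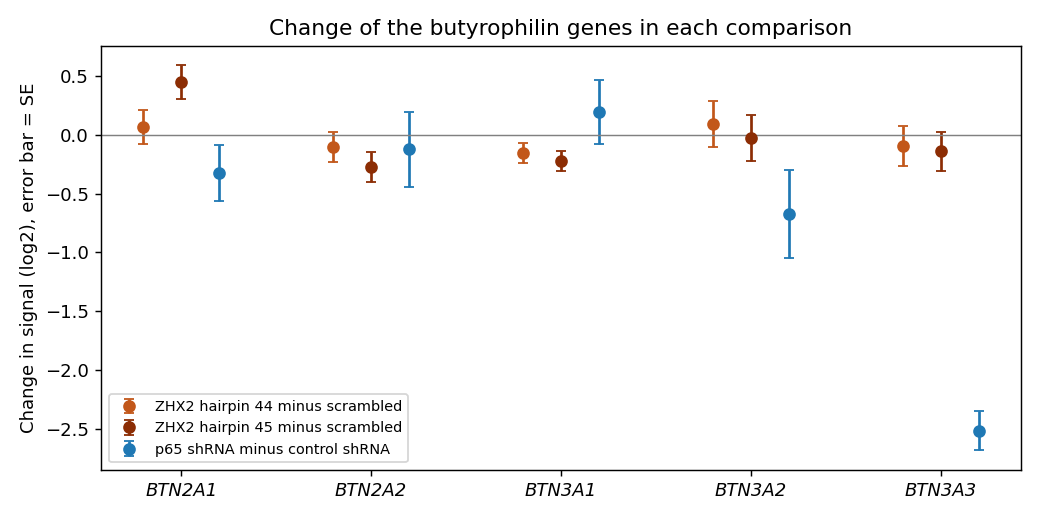
Log2 change of the 5 butyrophilin genes with its SE, for ZHX2 hairpin 44 and ZHX2 hairpin 45 against scrambled and for p65 shRNA against control shRNA. The ZHX2 changes lie between -0.27 and 0.45, and BTN3A3 with p65 shRNA lies at -2.52.

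Lists of genes by family, pathway, regulation, position or cell type were described beside the butyrophilins. The lists were chosen with earlier results of these data known, so their calls and p-values are a description. In most lists, genes with the smallest p in the mean hairpin comparison were named. List counts are from limma, to be read against the shares of all genes above. Membership of a list does not mean that a gene works with the butyrophilins. With the intensity trend, 17.3% of all genes were higher and 8.89% lower with the mean of both ZHX2 hairpins. NCR3LG1, ACAT2, MAP4, ZNF217, HLA-E, TAP1, PAX8, PAX2, KRT18, VIM, EPAS1, PTPRC and NCAM1 were picked out after their values were seen. In the other butyrophilin family genes, 0 of 7 measured were called in the mean of the ZHX2 hairpins and 1, ERMAP, was lower with the trend, with a median log2 change of -0.17. BTN1A1, the milk-fat butyrophilin next to the cluster, had -0.17 (SE 0.0863, limma adjusted p = 0.230), the myelin gene MOG had -0.29 (limma adjusted p = 0.0847), and the erythroid gene ERMAP had -0.28 (limma adjusted p = 0.103). BTNL2, BTNL3, BTNL8 and BTNL9 had 0.03, -0.10, -0.25 and -0.09. By single hairpin, ERMAP had -0.40 with hairpin 44 and -0.17 with hairpin 45. Under p65 shRNA these 7 genes had a median of -0.14, between -0.46 for BTNL2 and 0.80 for MOG, and 0 were called with or without the intensity trend.

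Of 10 B7 family ligands, 3 rose and 0 fell with the ZHX2 hairpins. CD274, which encodes the checkpoint ligand PD-L1, read 7.33 and 7.44 with hairpin 44, 8.08 and 8.12 with hairpin 45, and 6.75 and 6.86 with scrambled, a change of 0.93 for the mean of both hairpins. PDCD1LG2, encoding PD-L2, rose by 1.12, and NCR3LG1, encoding the NKp30 ligand B7-H6, by 0.90. All 3 were called with any single array left out. Under p65 shRNA the list had 0 calls with or without the trend and a median of 0.06.

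Of 8 measured mevalonate and isoprenoid enzymes, which make the endogenous phosphoantigens, 0 rose and 1 fell with the ZHX2 hairpins, or 3 with the trend. HMGCS1, the synthase at the start of the pathway, read 7.91 and 8.01 with hairpin 44, 8.02 and 7.98 with hairpin 45, and 8.73 and 8.69 with scrambled, and fell by 0.73 (SE 0.0664, limma adjusted p = 0.00281). FDPS, the farnesyl pyrophosphate synthase that aminobisphosphonate drugs inhibit, had -0.25 (limma adjusted p = 0.0711), and MVD, which makes isopentenyl pyrophosphate, had -0.28 (limma adjusted p = 0.0654). With the trend FDPS (limma trend adjusted p = 0.0265) and MVD (0.0123) passed as well. The hairpins were alike for FDPS (-0.24 with hairpin 44, -0.26 with hairpin 45) but not for MVD (-0.15 with hairpin 44, -0.41 with hairpin 45). Under p65 shRNA the list median was -0.57 against 0.00686 over all genes. No enzyme was called there without the trend, and 3 of 8 fell with it. HMGCS1 read 6.84 and 6.88 with p65 shRNA and 8.40 and 7.95 with control shRNA (log2 change -1.31, limma trend adjusted p = 0.00592). FDPS read 3.79 and 4.17 with p65 shRNA and 5.20 and 5.32 with control shRNA (-1.29, limma trend adjusted p = 0.0214), and ACAT2, the acetyl-CoA acetyltransferase, read 5.75 and 6.26 with p65 shRNA and 7.22 and 7.16 with control shRNA (-1.19, limma trend adjusted p = 0.0145). With single arrays left out the trend call was lost for all 3 without p65 shRNA replicate 1, for HMGCS1 and FDPS also without p65 shRNA replicate 2, and for FDPS also without control replicate 2, with limma trend adjusted p up to 0.0957 for HMGCS1, 0.188 for FDPS and 0.134 for ACAT2.

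Of 8 genes for partners and trafficking, 1 rose with the ZHX2 hairpins: PRKAB1, a regulatory subunit of AMP-activated kinase, by 0.48 (limma adjusted p = 0.00641). With the trend 2 rose and 1, ABCA1, fell. ABCA1, a lipid exporter, had -0.23 (limma adjusted p = 0.0597, or 0.00136 with the trend). That mean came from hairpin 45 alone, since ABCA1 had 0.02 with hairpin 44 and -0.47 with hairpin 45. RHOB, the small GTPase that gathers at BTN3A1 in human cells exposed to phosphoantigen, had -0.11 (limma adjusted p = 0.566). Under p65 shRNA, RHOB read 8.17 and 8.16, against 7.12 and 6.45 with control shRNA. It rose by 1.39 with the trend (limma trend adjusted p = 0.0122), a call lost without either p65 shRNA array (up to 0.138). MAP4, a microtubule-associated protein, fell by 0.72 with the trend (limma trend adjusted p = 0.0386), a call lost whichever array was left out (0.0527 to 0.266).

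Among 14 measured transcription regulators of butyrophilin and MHC class I genes, 0 rose and 3 fell with the ZHX2 hairpins, with or without the trend. IRF9, the DNA-binding part of the type I interferon complex, read 7.90 and 8.01 with hairpin 44, 7.87 and 7.95 with hairpin 45, and 8.75 and 8.63 with scrambled, and fell by 0.76 (limma adjusted p = 0.00342). IFI16, a DNA sensor, fell by 0.43 (limma adjusted p = 0.0108), and ZNF217, a zinc-finger repressor, by 0.35 (limma adjusted p = 0.0161), although ZNF217 was called in only 1 of 6 fits that left out an array, that without scrambled replicate 1. NLRC5 read 7.36 and 7.44 with hairpin 44, 7.49 and 7.38 with hairpin 45, and 7.66 and 7.61 with scrambled (-0.21, SE 0.0692, limma adjusted p = 0.0887), and IRF1, an interferon-gamma effector, had 0.03 (limma adjusted p = 0.847). Under p65 shRNA 0 of the 14 were called with or without the trend. NLRC5 read 2.50 and 2.72 with p65 shRNA, against 2.26 and 2.39 with control shRNA, and IRF1 had a change of -0.01.

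In MHC class I presentation, 1 of 12 measured genes rose and 3 fell with the ZHX2 hairpins, or 1 and 6 with the trend. B2M, the light chain, fell by 0.36 (limma adjusted p = 0.0195), a call held in 1 of 6 fits that left out an array, that without scrambled replicate 1. HLA-E fell by 0.27 (limma adjusted p = 0.0418) and the peptide transporter gene TAP1 by 0.34 (limma adjusted p = 0.0325), while its partner TAP2 rose by 0.32 (limma adjusted p = 0.0264). These 3 calls were lost whichever array was left out, with limma adjusted p up to 0.122, 0.109 and 0.105. HLA-E and TAP1 were also lost with each array centred on its median (0.0817 and 0.0562) and TAP2 with quantile normalization (0.0673). Of 7 measured NKG2D ligands, which gamma-delta T cells and NK cells also read, 2 rose, or 3 with the trend. The 2 were ULBP1, by 0.97 (SE 0.158, limma adjusted p = 0.0120), and ULBP3, by 0.59 (limma adjusted p = 0.0136), the last of these not called without scrambled replicate 2 (0.0531). Under p65 shRNA the medians were 0.10 for MHC class I presentation and -0.27 for the NKG2D ligands, with 0 calls in either with or without the trend.

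**Figure D5:**
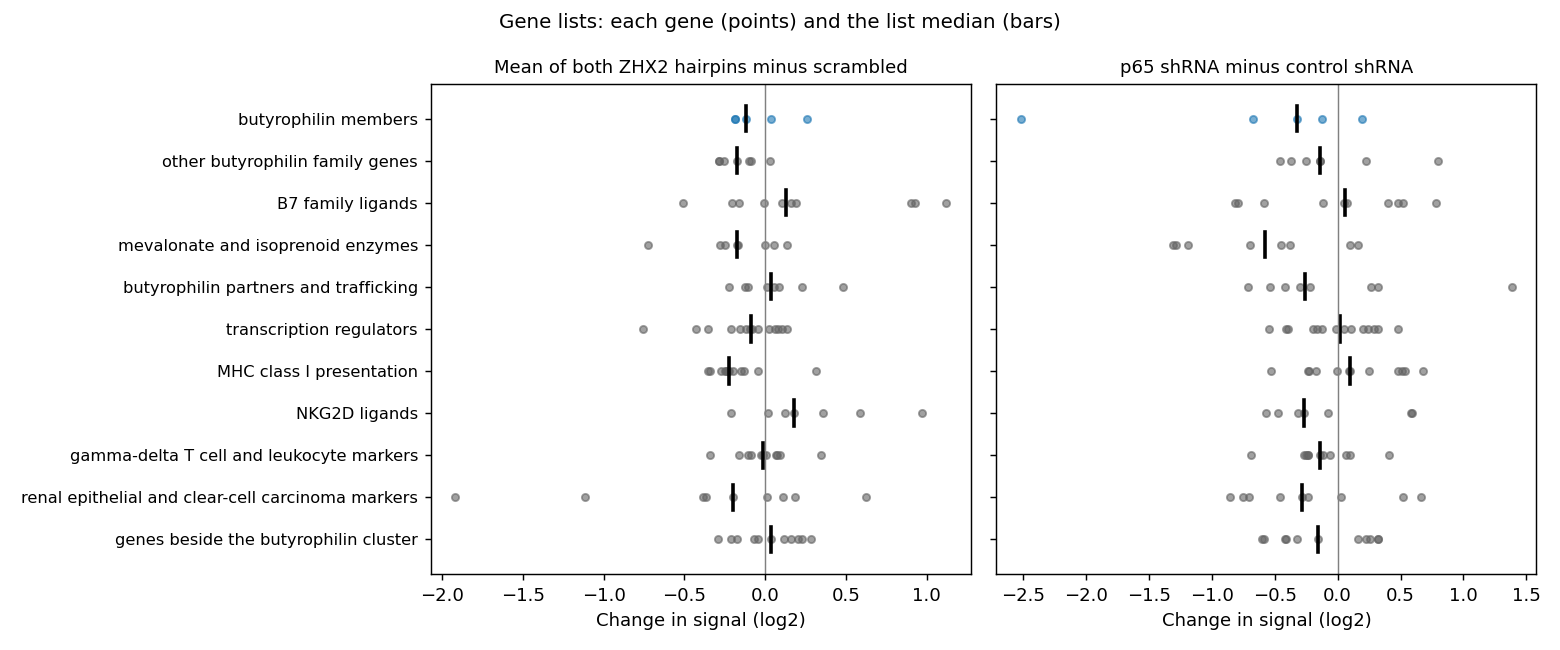
Log2 change of each measured gene (points) and the median (bars) of the 5 butyrophilin genes and of each gene list, for the mean of both ZHX2 hairpins against scrambled (left) and p65 shRNA against control shRNA (right). In the right panel the butyrophilin point at -2.52 is BTN3A3, and the median of the mevalonate enzymes is -0.57.

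Renal epithelial and carcinoma markers differed in level. PAX8 had signals of 11.74 to 12.35 on the ZHX2 arrays and of 9.04 to 9.15 on the p65 arrays. VIM had 12.12 to 12.33 and 9.06 to 9.36. KRT18 was lower, at 7.02 to 7.97 and 2.05 to 2.50, as was CDH16, at 6.38 to 7.58 and 2.45 to 3.65. With the ZHX2 hairpins, 1 of 9 measured markers rose, KRT18 by 0.62, and 4 fell: CDH6 by 1.92, CDH16 by 1.11, PAX8 by 0.38 and PAX2 by 0.36. With the trend 1 rose and 5 fell. The KRT18 call was lost without scrambled replicate 2 or hairpin 44 replicate 1, and the PAX2 call whichever array was left out or with each array centred on its median (limma adjusted p = 0.0542). Under p65 shRNA 1 of 9 was called with the trend, EPAS1, which encodes HIF-2alpha, at -0.85 (limma trend adjusted p = 0.0445), a call that held only in the fit without control replicate 1 (otherwise up to 0.338). Of 11 measured gamma-delta T-cell and leukocyte markers, 0 rose and 1 fell with the ZHX2 hairpins, TRDC by 0.34 (limma adjusted p = 0.0280), lost in all 6 fits that left out an array, with median centring (0.0513) and with the trend (0.0788), and CD3E had -0.16 (limma adjusted p = 0.147). Levels differed within this list. The leukocyte gene PTPRC had signals of 3.60 to 3.95 on the ZHX2 arrays and of 0.72 to 0.95 on the p65 arrays. NCAM1, another member, had 8.66 to 8.92 and 4.49 to 5.35, above the array medians of at most 6.22 and 1.89. The part of these marker genes in the butyrophilin values was not tested. Of 20 protein-coding genes next to the cluster 11 were measured, and 1 rose with the ZHX2 hairpins, ABT1, an activator of basal transcription, by 0.28 (limma adjusted p = 0.0398), a call lost whichever array was left out and with quantile normalization (0.0923). The histone gene H2BC12 had 0.23 (limma adjusted p = 0.0743, or 0.00382 with the trend, under which 2 of the 11 rose) and the nucleosome-binding gene HMGN4 had 0.16 (limma adjusted p = 0.149), and 0 of the 11 were called under p65 shRNA with or without the trend.

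The genes whose 6-array profile in the ZHX2 table was nearest to the mean profile of the 5 butyrophilins were ARL15, RBM6, RNA5SP24, OGFR and GTF2E2, at root mean square differences of 0.0185, 0.0191, 0.0193, 0.0203 and 0.0225 on the log2 scale. That mean profile was itself small, at 0.0705 from the scrambled mean, and 728 genes (3.25%) lay closer to it than that.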

How the data were processed

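The deposited values are log2 RMA signals per probe set, per the submitters' processing notes and the deposited values; for RMA itself, software, version and build were not given in the sources used here. Both tables list the same 53617 probe sets. Names came from both platform annotations through these shared identifiers, with symbols updated by RefSeq, and 24480 probe sets had 1 gene. The probe sets of the 5 butyrophilins are named only in the annotation of the p65 table's platform. A gene with several probe sets was read by that with the highest mean. Groups and replicate numbers came from the sample titles.

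Group means were fitted over all 22432 genes with limma 3.58.1 in R 4.3.3, with empirical Bayes moderation and Benjamini-Hochberg adjustment, in 1 fit of 6 ZHX2 arrays (3 residual degrees of freedom) and 1 of 4 p65 arrays (2). Tests were two-sided, an adjusted p under 0.05 was called, and the fit was tested on simulated data. The number of arrays limits the precision.

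The members and lists were chosen with earlier results of these data known. Named genes were the members, ZHX2, RELA, NLRC5, IRF1, FDPS, RHOB, the other butyrophilin family genes, the 2 with the smallest p of each other list in the mean hairpin comparison, 3 neighbours and the 5 with the most like profile; exceptions are named where used. Replicate numbers were not used to pair samples in the main fits. Deviations of same-numbered arrays correlated between -0.0263 and 0.0542. That cannot tell whether these arrays were prepared together, and the labels do not say. Alternatives were an intensity trend, robust moderation, other normalizations, probe set rules, a filter on dim probe sets, array weights, a replicate block, fits of single pairs of groups and omission of each array; the intensity trend combined with an omission, a normalization or the block was chosen after seeing the data.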

Additional observations from a re-analysis of the deposited data

How the results depend on the processing

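The count of genes with hairpin 44 against scrambled (1716) became 3940 with the intensity trend, 3062 without dim probe sets, 820 with the replicate block and 575 with only the groups compared. That of hairpin 45 against hairpin 44 (89) became 1466, 403, 11 and 3 under those settings, and 207 with array weights. The p65 count (0) became 866 with the intensity trend, and with the trend it was 1046 and 1006 without control replicate 1 and 2, 11 and 185 without p65 shRNA replicate 1 and 2, 857 with quantile normalization, 863 with median centring and 1434 with the replicate block. Leaving out single arrays gave counts of 1788 to 3340 for the mean of both hairpins (4102), 3 to 595 for hairpin 44, 1134 to 3974 for hairpin 45 (4513), 0 to 4 for hairpin 45 against hairpin 44 and 0 for p65. The smaller fits held fewer arrays, and the cause of the other shifts was not tested. Of the calls with the mean of both hairpins 64.9% were higher, against 53.2% with quantile normalization and 73.0% with median centring.

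The median change of the 5 butyrophilins lay between -0.18 and 0.0051 for the mean of both hairpins and between -0.59 and -0.058 under p65 shRNA when single arrays were left out. That of BTN3A3 under p65 shRNA lay between -2.58 and -2.45. Between hairpins 45 and 44, single omissions moved BTN3A2 between -0.35 and 0.11, positive without hairpin 44 replicate 2, and BTN3A3 between -0.29 and 0.19, positive without that array (0.04) and without hairpin 45 replicate 1 (0.19). With the replicate block the mean hairpin count was 3384, that of hairpin 45 was 3787 and that of p65 was 0, and none of the 5 butyrophilins was called between hairpins; the block lost the calls of HLA-E (limma adjusted p = 0.0686), PAX2 (0.0562) and ABT1 (0.0618).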
